A study of Homo sapiens with 9 samples.

Results

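The aminoacyl-tRNA synthetase genes of human cells were followed through 9 libraries of ribosomal RNA-depleted total RNA. Members were the 35 listed genes, found in the count table by Ensembl identifier without its version, of 60648 gene lines in all. They comprised 19 genes of cytosolic enzymes and 16 genes of mitochondrial enzymes, and all 35 passed the expression filter, which kept 19473 genes. Cytosolic and mitochondrial enzymes were compared within and between 3 cell lines.

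The lines were the parental T-REx line, a HEK293 derivative of human embryonic kidney origin that carries the tetracycline repressor and no inserted SMN sequence, and its derivatives TC4-2A and TL4-2A. When induced, TC4-2A cells overexpress the circular RNA C2A–2B–3–4, made of exons 2A, 2B, 3 and 4 of the survival motor neuron genes SMN1 and SMN2, and TL4-2A cells overexpress L2A–2B–3–4, the linear transcript of the same exons. All cells, T-REx included, received Dox for 96 h, and each line gave 3 libraries. Whether the libraries of a line were separate cultures, and whether each derived line is a single clone, is stated in none of the sources used here, so p-values measure the spread between these libraries, and a difference between lines cannot be told apart from one between clones.

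The libraries held 16561680 to 21491977 counts. SMN1 had 38.4 ± 1.84 CPM (library-size-normalised counts, TMM-scaled, mean ± SD, n = 3) in T-REx, 74.8 ± 2.60 CPM in TC4-2A and 42.7 ± 1.36 CPM in TL4-2A libraries. The 6 HEK293 markers looked for had counts in every library, at unequal levels. In T-REx cells VIM had 566 CPM, NEFL 217, CDH2 129, PAX2 7.19, LHX1 5.26 and NEFM 2.36. VIM, NEFL and CDH2 were called lower in both derived lines. HBB and KRT14, markers of red blood cells and keratinocytes, had 0 counts in every library. Of the other markers of foreign cell types, 7 had at most 0.313 CPM in any library and COL1A1 had 11.1 CPM in T-REx, 9.18 CPM in TC4-2A and 7.99 CPM in TL4-2A libraries. The mean of COL1A1 was above those of PAX2, LHX1 and NEFM in each line.

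Aminoacyl-tRNA synthetases join each amino acid to its own tRNA and so set the meaning of the codons during translation. The cytosolic enzymes charge tRNAs for cytosolic ribosomes, and a second, mostly separate set of nuclear genes supplies the mitochondria. Lysyl- and glycyl-tRNA synthetase are exceptions, since KARS1 and GARS1 encode the forms for both compartments, and mitochondrial glutaminyl-tRNA is made by the amidotransferase QRSL1–GATB–GATC instead of a dedicated synthetase. Of the cytosolic enzymes, EPRS1, IARS1, LARS1, QARS1, MARS1, KARS1 and RARS1 sit in the multisynthetase complex on the scaffold proteins AIMP1, AIMP2 and EEF1E1. Many genes of cytosolic synthetases are targets of ATF4, the transcription factor of the amino acid response, which with a C/EBP partner binds the core TGATGNAA.

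Promoter sequences were taken from RefSeq (GRCh38.p14) for 30 of the 35 genes, in windows of 300 bases, from 250 bases before to 50 bases after the start of transcription. The core TGATGNAA, or TTNCATCA when read on the other strand, was found in 7 of 16 cytosolic genes with a window (43.8%) and in 1 of 14 mitochondrial genes (7.14%). It was found in 1217 of 27305 genes of the whole table (4.46%) and in 340 of 12244 tested genes that had a window (2.78%). The 7 cytosolic genes were AARS1, CARS1, GARS1, IARS1, MARS1, NARS1 and TARS1, and the mitochondrial gene was YARS2. Stretches of 60 bases from 5 of these promoters are shown, 4 from genes that were lower and 1 from the gene that was higher in TL4-2A than in T-REx cells, 5′ to 3′ on the strand of the gene, with the match in capitals.
AARS1, chr16:70289660-70289719, minus strand: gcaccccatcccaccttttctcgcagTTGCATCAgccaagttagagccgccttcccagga
TARS1, chr5:33440935-33440994, plus strand: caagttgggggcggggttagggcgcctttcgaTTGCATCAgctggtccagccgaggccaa
GARS1, chr7:30594819-30594878, plus strand: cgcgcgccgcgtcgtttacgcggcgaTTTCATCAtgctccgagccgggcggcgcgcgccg
NARS1, chr18:57621807-57621866, minus strand: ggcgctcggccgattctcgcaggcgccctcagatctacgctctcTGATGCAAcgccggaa
IARS1, chr9:92293677-92293736, minus strand: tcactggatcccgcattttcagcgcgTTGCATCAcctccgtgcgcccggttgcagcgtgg

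The first base of the match lay 187 bases before the RefSeq start in AARS1, 33 before it in GARS1 and 13 before it in IARS1, and was base 3 of the transcript in TARS1 and base 15 in NARS1. The letters were the same in TARS1, AARS1 and IARS1 and, read on the other strand, in NARS1, and GARS1 differed from them at the free position. A match is a description of the letters and was not tested for binding.

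The histidyl-tRNA synthetase genes HARS1, cytosolic, and HARS2, mitochondrial, lie head to head on chromosome 5 with RefSeq starts 85 bases apart. The interval between both starts is shown in capitals, with up to 30 bases on either side, because these genes share it and their mRNAs are compared in a later paragraph.
HARS1 (to the left, minus strand) and HARS2 (to the right, plus strand), chr5:140691341-140691484, plus strand: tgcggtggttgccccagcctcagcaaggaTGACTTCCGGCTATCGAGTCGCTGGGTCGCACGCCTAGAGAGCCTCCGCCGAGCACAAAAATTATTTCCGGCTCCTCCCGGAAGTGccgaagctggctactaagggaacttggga

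Levels of different genes were set side by side as CPM per kb of annotated exon. The length counts all exon bases annotated for a gene, merged over its transcripts. The order below therefore depends on annotation as well as on reads. By CPM alone, LARS1 (517 CPM, 20639 bases) and IARS1 (457 CPM, 22418 bases) stood above TARS1 (448 CPM, 4257 bases) in T-REx cells. IARS2 had 262 CPM over 4135 bases. In T-REx cells the median was 37.5 CPM per kb for cytosolic and 6.1 CPM per kb for mitochondrial synthetase genes. TARS1, for threonine, had the highest level of all members with 105 ± 2.19 CPM per kb (SD, n = 3), before the phenylalanyl subunit gene FARSA with 80.1 ± 1.70 and EPRS1, the fused enzyme for glutamate and proline, with 65.8 ± 1.08. The mitochondrial isoleucyl enzyme IARS2 came next with 63.3 ± 0.435, above the other 16 cytosolic genes, and its level was apart from the 45.2 ± 1.39 of KARS1, the next in order. From NARS1 with 38.2 ± 0.12 through VARS1 and AARS1 to MARS1 with 37.1 ± 0.558, each gene differed from the next in the order by less than the larger SD of the pair. The lowest cytosolic gene was CARS1 with 4.74 ± 0.0497, and the lowest of all was VARS2, the mitochondrial valyl enzyme, with 0.332 ± 0.0582 CPM per kb.

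In VARS2, 63.0% of the exon bases are shared with a long non-coding RNA gene on the same strand (ENSG00000288473, 0.132 CPM), and in SARS2, for mitochondrial serine, 48.2% are shared with a protein-coding gene on the same strand (ENSG00000269547, 0.134 CPM). The levels of VARS2 and SARS2 are therefore uncertain, since the rule by which the authors counted reads in shared exons is stated in none of the sources used here. Other overlaps of members with tested genes covered at most 7.7% of the member's exons, as for HARS1 with WDR55.

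The summed level of the 19 cytosolic genes was 4525, 4547 and 4552 CPM in the T-REx libraries, 4795, 4805 and 4778 CPM in the TC4-2A libraries and 4301, 4374 and 4347 CPM in the TL4-2A libraries. Thus the sum was highest in TC4-2A and lowest in TL4-2A cells, with no overlap between lines. AARS1, KARS1 and TARS1 had means of 384, 183 and 448 CPM in T-REx and 259, 126 and 335 CPM in TL4-2A libraries. Together these falls are larger than that of the sum, and 8 of the 19 genes were called higher in TL4-2A cells. The low sum and ratio of TL4-2A cells are therefore no trait of the cytosolic genes as a class. The 16 mitochondrial genes summed to 881 ± 10.7 CPM in T-REx, 913 ± 6.56 CPM in TC4-2A and 903 ± 7.36 CPM in TL4-2A libraries, and the libraries of T-REx stood below those of both derived lines. The ratio of both sums was 5.15 ± 0.0767 for T-REx, 5.25 ± 0.0508 for TC4-2A, and in TL4-2A cells it was 4.81 ± 0.0121. In bulk RNA, fewer expressing cells and less RNA per cell cannot be told apart.

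**Figure D1:**
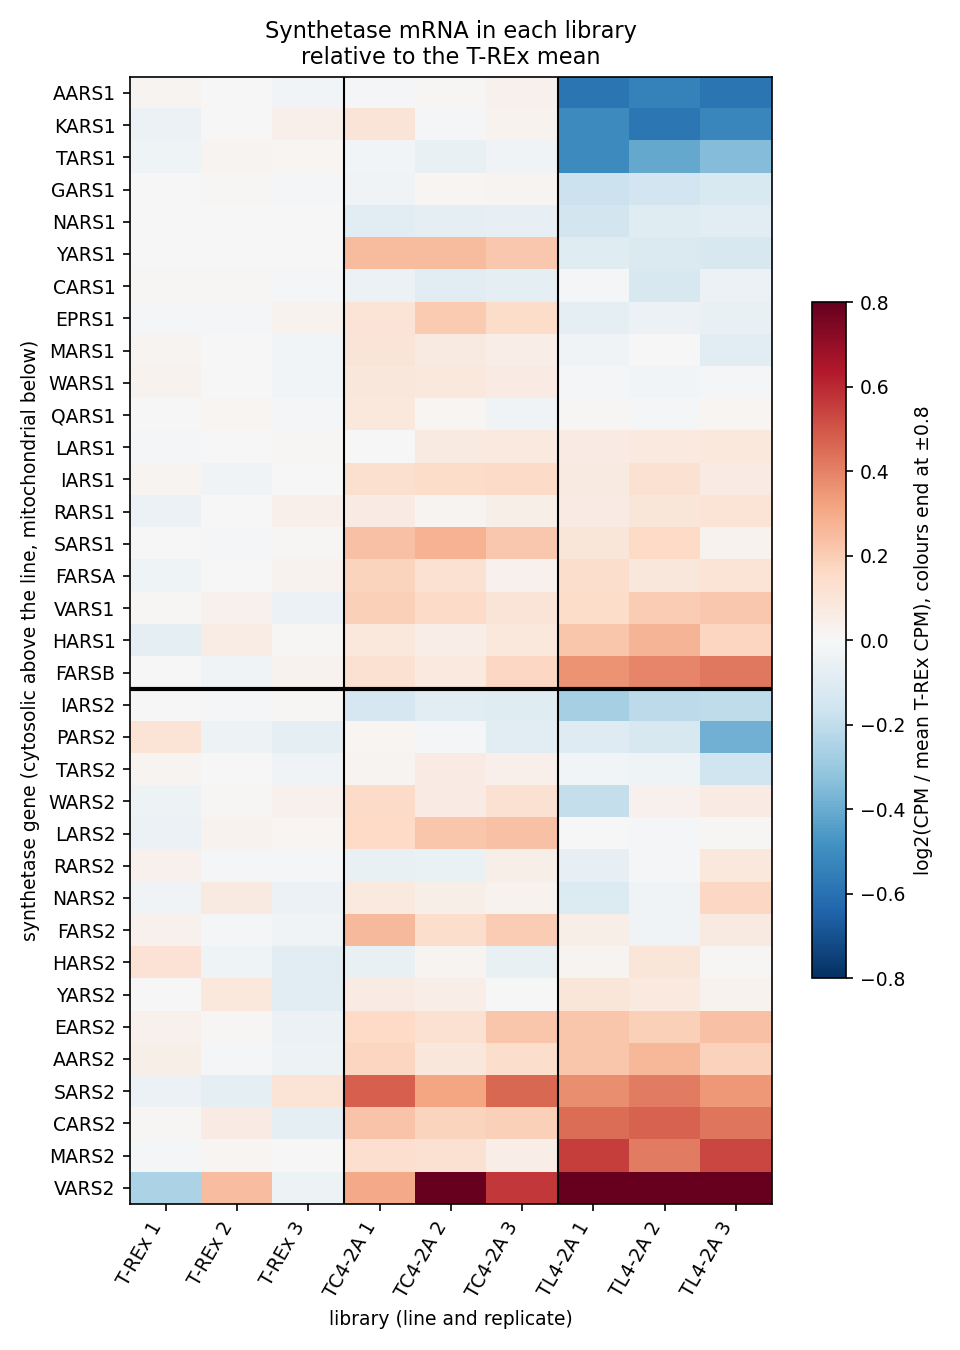
Level of each of the 35 synthetase mRNAs in each of the 9 libraries, as log2 of its CPM over the mean CPM of the 3 T-REx libraries (colour, ending at ±0.8), with cytosolic genes above and mitochondrial genes below the heavy line. AARS1, KARS1 and TARS1 are low in all 3 TL4-2A libraries and near the T-REx level in TC4-2A libraries, and VARS2 is high in all TL4-2A libraries.

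To learn which synthetase mRNAs differed in the line that makes the circular RNA, TC4-2A cells were compared with T-REx cells. The study also detected linear transcripts of the same exons, as precursors of the circle, in TC4-2A cells. The comparison is therefore not one of the circular RNA alone. The changes were small and mostly upward: of the cytosolic genes 9 were called higher, 1 lower and 9 were not called (edgeR quasi-likelihood test, adjusted p under 0.05 over all genes tested), with a median log2 fold change of 0.07 and a range of −0.08 to 0.24. Of the mitochondrial genes 7 were called higher, 1 lower and 8 were not called, with a median log2 fold change of 0.11 and a range of −0.1 to 0.58. Over all genes tested 14.2% were called higher and 14.6% lower, with a median of 0.0037. Calls depend on abundance: among the 5464 tested genes with a mean CPM at or above that of CARS1, the least abundant cytosolic synthetase, 26.5% were called higher and 18.9% lower in this comparison.

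YARS1 and SARS1, for tyrosine and serine, had the smallest p among cytosolic genes in TC4-2A cells. YARS1 (chromosome 1, 32775237 to 32818031) had 256.9, 257.6 and 257.2 CPM in T-REx, 307.1, 305.9 and 298.3 CPM in TC4-2A and 240.5, 237.4 and 235.8 CPM in TL4-2A libraries. The 3 lines did not overlap, and TC4-2A was the high and TL4-2A the low line. YARS1 rose by 0.24 ± 0.027 (log2 fold change ± SE) in TC4-2A cells (edgeR adjusted p = 3.27e-09) and fell by 0.11 ± 0.027 in TL4-2A cells (edgeR adjusted p = 0.000823), and it was the member called in opposite directions in the derived lines.

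SARS1 (chromosome 1, 109213918 to 109238182) had 149.8, 147.8 and 150.1 CPM in T-REx, 175.2, 181.1 and 173.4 CPM in TC4-2A and 159.4, 166.3 and 152.2 CPM in TL4-2A libraries. All TC4-2A libraries were above all others. Transcripts of SARS1 were also followed by qPCR in the study. The change in TC4-2A cells was 0.24 ± 0.032 (edgeR adjusted p = 1.79e-07), and SARS1 was 0.15 ± 0.033 higher in TC4-2A than in TL4-2A cells (edgeR adjusted p = 0.000371). Its change in TL4-2A cells, 0.09 ± 0.033 (edgeR adjusted p = 0.0179), was no longer called without T-REx replicate 2 (adjusted p = 0.0781), without TL4-2A replicate 2 (adjusted p = 0.193) or with no expression filter (adjusted p = 0.0805).

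Of the 7 cytosolic enzymes of the multisynthetase complex, EPRS1, IARS1 and MARS1 were called higher in TC4-2A cells and none lower. EPRS1 went from 347.5, 346.6 and 357.0 CPM in T-REx to 377.5, 404.7 and 387.7 CPM in TC4-2A libraries, a change of 0.15 ± 0.027 (edgeR adjusted p = 2.88e-05). In TL4-2A cells it had 331.7, 339.9 and 336.9 CPM, below the T-REx libraries but with no call (−0.06 ± 0.028, edgeR adjusted p = 0.0805). IARS1, for isoleucine, was 0.14 ± 0.026 higher in TC4-2A cells (edgeR adjusted p = 6.42e-05), with 499.1 to 507.7 CPM against 449.0 to 464.1 CPM in T-REx. VARS1, for valine, and both subunits of phenylalanyl-tRNA synthetase, FARSA and FARSB, were higher by 0.15, 0.11 and 0.12.

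Among mitochondrial enzymes LARS2, for leucine, had 68.6, 72.4 and 71.8 CPM in T-REx, 79.2, 82.8 and 83.4 CPM in TC4-2A and 71.2, 70.1 and 71.4 CPM in TL4-2A libraries. Only the TC4-2A libraries stood apart. The change was 0.20 ± 0.042 in TC4-2A cells (edgeR adjusted p = 0.000225) and 0.0 ± 0.043 in TL4-2A cells (edgeR adjusted p = 0.981), and LARS2 was 0.21 ± 0.043 higher in TC4-2A than in TL4-2A cells (edgeR adjusted p = 0.00017).

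SARS2 had 8.54, 8.39 and 9.50 CPM in T-REx, 12.3, 11.0 and 12.1 CPM in TC4-2A and 11.4, 11.8 and 11.2 CPM in TL4-2A libraries, so both derived lines were above T-REx and overlapped each other. It was higher by 0.42 ± 0.091 in TC4-2A cells (edgeR adjusted p = 0.000415) and by 0.38 ± 0.093 in TL4-2A cells (edgeR adjusted p = 0.000997). The genes for mitochondrial cysteine and glutamate, CARS2 and EARS2, were also higher in TC4-2A cells, by 0.20 ± 0.043 (edgeR adjusted p = 0.000486) and 0.17 ± 0.040 (edgeR adjusted p = 0.00129).

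IARS2 was lower in both derived lines: 262.4, 259.7 and 263.1 CPM in T-REx, 238.7, 246.8 and 244.9 CPM in TC4-2A and 218.1, 226.1 and 227.2 CPM in TL4-2A libraries. The lines did not overlap. IARS2 fell by 0.10 ± 0.028 in TC4-2A cells (edgeR adjusted p = 0.0034) and by 0.23 ± 0.028 in TL4-2A cells (edgeR adjusted p = 2.09e-08). It lies next to EPRS1 on chromosome 1 on the opposite strand (220094132 to 220148041, against 219968600 to 220046530), and EPRS1 went the other way in TC4-2A cells.

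Several of the smaller calls in TC4-2A cells depended on a single library. The call of NARS1, for asparagine (−0.08 ± 0.031, edgeR adjusted p = 0.0483), the 1 cytosolic gene lower, was lost without any 1 of the 9 libraries (adjusted p from 0.0514 to 0.127). FARSB (adjusted p = 0.0169) was not called without T-REx replicate 2 (0.0926) or TC4-2A replicate 3 (0.0915), and FARSA (adjusted p = 0.00508) was not called without TC4-2A replicate 1 (0.0812). AARS2, for mitochondrial alanine (adjusted p = 0.0172), was not called without T-REx replicate 2 (0.0637), T-REx replicate 3 (0.0916) or TC4-2A replicate 1 (0.0652). The calls of WARS1, MARS1 and FARS2, at 0.08, 0.08 and 0.20, were lost with DESeq2 (adjusted p = 0.0792, 0.0639 and 0.12). WARS1 was also not called without any 1 of T-REx replicates 2 and 3, TC4-2A replicates 1, 2 and 3 and TL4-2A replicates 2 and 3 (adjusted p from 0.0562 to 0.15), MARS1 without T-REx replicate 2 or 3 or TC4-2A replicate 1 or 2 (0.106 to 0.151), and FARS2 without T-REx replicate 2 or 3 or TC4-2A replicate 1 or 3 (0.0571 to 0.122).

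As a linear counterpart, TL4-2A cells were compared with T-REx cells. Here the cytosolic genes split: 8 were called higher, 6 lower and 5 were not called, with a median log2 fold change of −0.02 and a range of −0.57 to 0.39. Of the mitochondrial genes 6 were called higher, 1 lower and 9 were not called, with a median of 0.04 and a range of −0.23 to 1.17. Over all genes tested 21.9% were called higher and 22.5% lower, with a median of −0.0006, and among the 5464 genes at or above the level of CARS1 the shares were 33.1% and 26.5%. With no expression filter 5 cytosolic genes instead of 8 were called higher. VARS2 was the 1 member beyond a 2-fold change.

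AARS1, the cytosolic alanyl enzyme (chromosome 16, 70251983 to 70289707), fell most. It had 390.1, 383.7 and 379.4 CPM in T-REx, 382.3, 386.7 and 393.2 CPM in TC4-2A and 256.6, 264.2 and 255.9 CPM in TL4-2A libraries. T-REx and TC4-2A overlapped, and every TL4-2A library was far below both. The change was −0.57 ± 0.027 in TL4-2A cells (edgeR adjusted p = 2.19e-19), 32.6% lower, against 0.01 ± 0.026 in TC4-2A cells (edgeR adjusted p = 0.796).

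KARS1, for lysine (chromosome 16, 75627474 to 75648643), had 177.3, 183.4 and 188.5 CPM in T-REx, 196.4, 181.8 and 186.7 CPM in TC4-2A and 128.9, 122.7 and 127.7 CPM in TL4-2A libraries. Its pattern was that of AARS1. It fell by 0.53 ± 0.034 in TL4-2A cells (edgeR adjusted p = 9.86e-16).

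TARS1 (chromosome 5, 33440696 to 33468091) had 437.2, 454.3 and 452.2 CPM in T-REx, 441.4, 430.6 and 439.7 CPM in TC4-2A and 315.0, 336.8 and 352.4 CPM in TL4-2A libraries, again with TL4-2A below both. It fell by 0.42 ± 0.031 (edgeR adjusted p = 4.5e-14). GARS1, for glycine, YARS1 and NARS1 were the other cytosolic genes lower in TL4-2A cells, by −0.15, −0.11 and −0.11.

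FARSB, the beta subunit of phenylalanyl-tRNA synthetase (chromosome 2, 222566899 to 222656092), rose most among cytosolic genes. It had 83.7, 82.4 and 85.7 CPM in T-REx, 91.4, 88.5 and 93.9 CPM in TC4-2A and 107.6, 110.1 and 112.2 CPM in TL4-2A libraries. The 3 lines did not overlap, with TL4-2A highest. The change was 0.39 ± 0.039 (edgeR adjusted p = 1.59e-10), while FARSA, whose product pairs with FARSB in 1 enzyme, was higher by 0.11 ± 0.032 (edgeR adjusted p = 0.00343). VARS1 and HARS1 were higher by 0.19 and 0.22. IARS1, RARS1 and LARS1 were called higher by under 0.1, and each of these calls was lost on leaving out single libraries: IARS1 (0.09, adjusted p = 0.00823) without T-REx replicate 2 (0.0523) or TL4-2A replicate 2 (0.0584), LARS1 (0.08, adjusted p = 0.0191) without TL4-2A replicate 3 (0.0516), and RARS1 (0.09, adjusted p = 0.0213) without T-REx replicate 1 (0.133), T-REx replicate 2 (0.0589), TL4-2A replicate 2 (0.0675) or TL4-2A replicate 3 (0.0888).

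Among mitochondrial genes VARS2 (chromosome 6, 30914205 to 30926459) rose most. It had 1.80, 2.55 and 2.09 CPM in T-REx, 2.65, 3.85 and 3.17 CPM in TC4-2A and 6.05, 4.44 and 4.14 CPM in TL4-2A libraries. The lines followed each other in that order without overlap. The change was 1.17 ± 0.18 in TL4-2A cells (edgeR adjusted p = 1.75e-06) and 0.58 ± 0.19 in TC4-2A cells (edgeR adjusted p = 0.0202). It rested on as few as 34 counts in a library, the lowest of any member, and in TC4-2A cells the call was lost without T-REx replicate 1 (0.47, adjusted p = 0.101), T-REx replicate 3 (0.56, adjusted p = 0.0621) or TC4-2A replicate 2 (0.42, adjusted p = 0.147), and with DESeq2 (adjusted p = 0.0661).

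MARS2, for mitochondrial methionine (chromosome 2, 197705369 to 197708395), had 17.5, 17.9 and 17.6 CPM in T-REx, 19.4, 19.2 and 18.3 CPM in TC4-2A and 25.97, 23.5 and 25.5 CPM in TL4-2A libraries. Its TL4-2A libraries stood above all others, with a change of 0.50 ± 0.062 (edgeR adjusted p = 2.52e-08). CARS2 had 66.8, 69.5 and 63.1 CPM in T-REx, 77.7, 75.1 and 76.0 CPM in TC4-2A and 90.6, 92.4 and 89.3 CPM in TL4-2A libraries, a change of 0.45 ± 0.043 in TL4-2A cells (edgeR adjusted p = 6.38e-11). SARS2, AARS2 and EARS2 were higher by 0.38, 0.23 and 0.21.

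Across both comparisons, which share the T-REx libraries, 10 members were called higher in both lines (FARSA, FARSB, IARS1, SARS1, VARS1, AARS2, CARS2, EARS2, SARS2 and VARS2) and 2 lower in both (NARS1 and IARS2). CARS1, QARS1, HARS2, NARS2, PARS2, RARS2, TARS2, WARS2 and YARS2, 9 members, were called in neither line, with log2 fold changes from −0.19 for PARS2 in TL4-2A cells to 0.11 for WARS2 in TC4-2A cells. Among the 18 genes of catalytic class I, 9 rose and 1 fell in TC4-2A cells, while 8 rose and 2 fell in TL4-2A cells. Among the 16 genes of class II, 6 rose and 1 fell in TC4-2A, and 6 rose and 5 fell in TL4-2A cells. EPRS1 carries both classes and was left out of these counts. In the multisynthetase complex 3 of 7 genes were higher and 1, KARS1, was lower in TL4-2A cells. Among genes at least as abundant as CARS1, 33.1% rose and 26.5% fell in TL4-2A cells, and 26.5% and 18.9% in TC4-2A cells, and with so few genes in each class these counts single out no class.

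**Figure D2:**
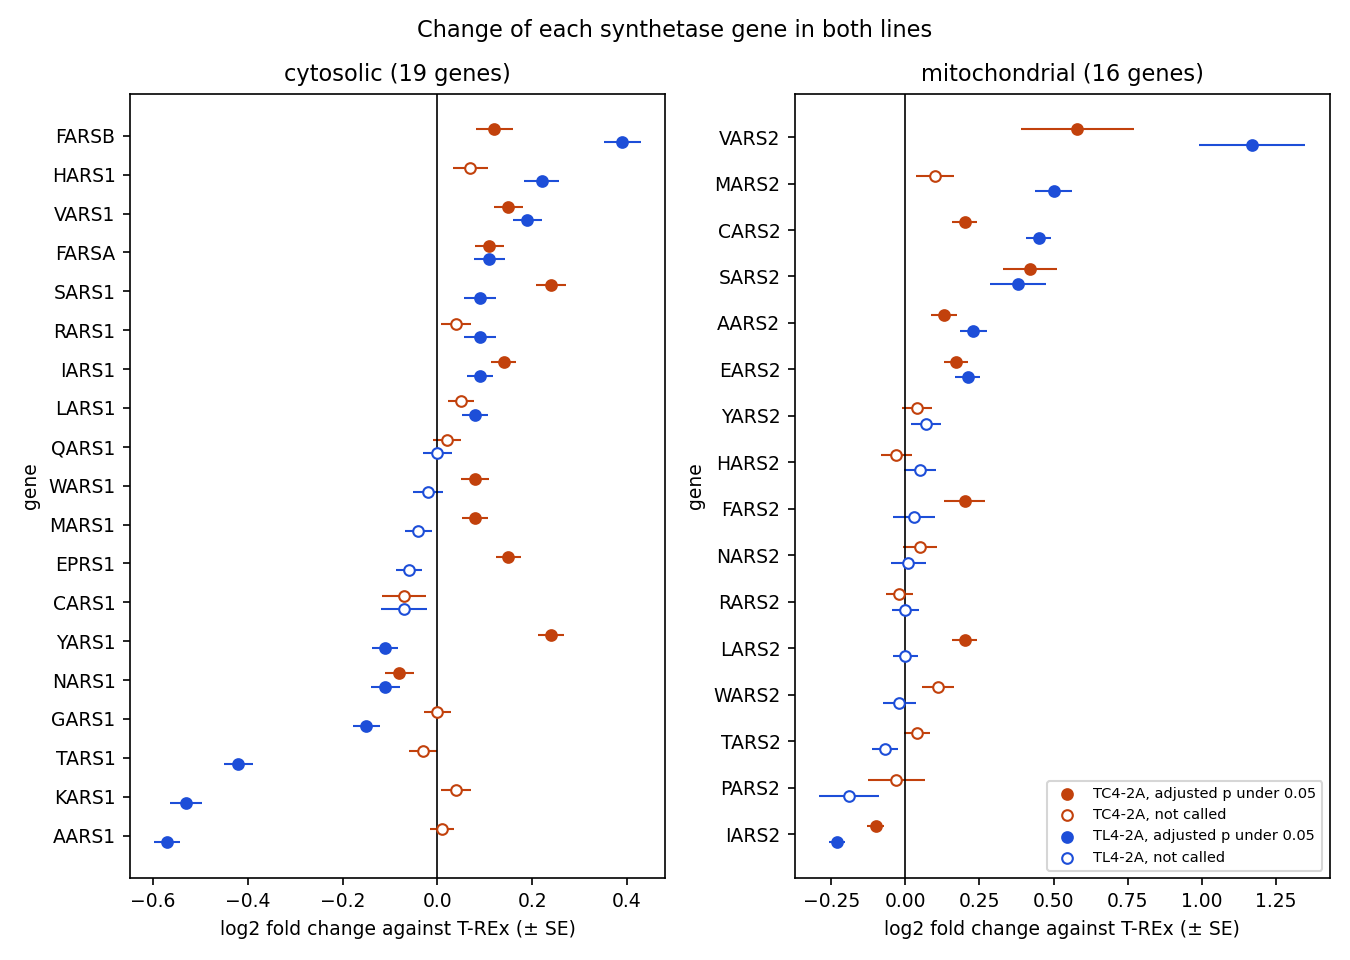
Log2 fold change ± SE of each synthetase gene against T-REx (x axis) in TC4-2A and TL4-2A cells, genes ordered by their change in TL4-2A cells, with filled points for an adjusted p under 0.05. Cytosolic changes in TC4-2A cells stay between −0.08 and 0.24, while those in TL4-2A cells run from −0.57 for AARS1 to 0.39 for FARSB.

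**Figure D3:**
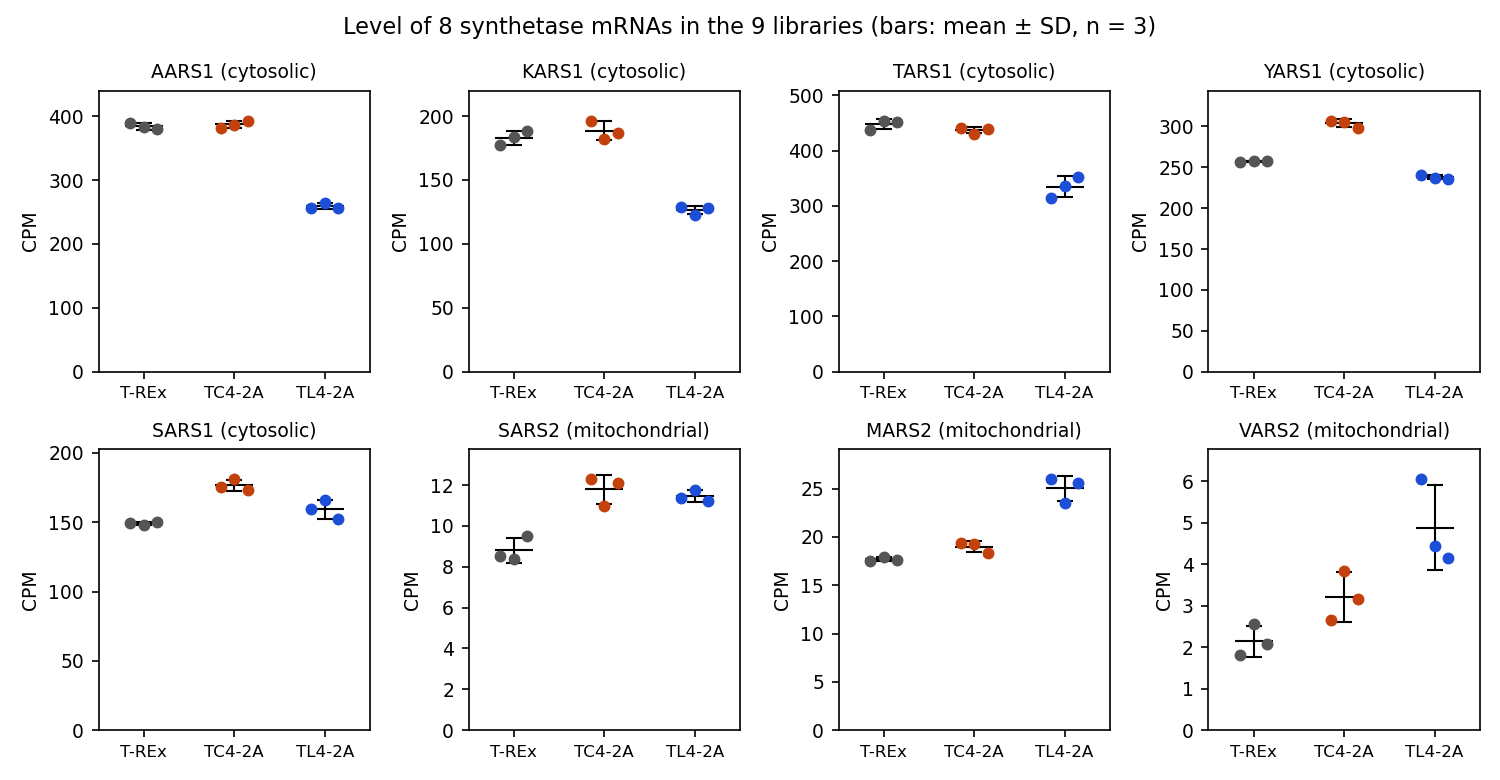
CPM (y axis, from 0) of 8 synthetase mRNAs in the 9 libraries, with mean ± SD of the 3 libraries of each line. AARS1, KARS1 and TARS1 are lower in TL4-2A than in both other lines, YARS1 and SARS1 are highest in TC4-2A, SARS2 is higher in both derived lines, MARS2 is highest in TL4-2A, and VARS2 rises from T-REx to TC4-2A to TL4-2A.

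The derived lines were also compared directly. Of the cytosolic genes 9 were higher and 2 lower in TC4-2A than in TL4-2A cells (median log2 fold change 0.06), and of the mitochondrial genes 4 were higher and 3 lower (median 0.01). Over all genes tested 17.6% were higher and 17.8% lower, and among the 5464 genes at or above the level of CARS1 24.4% were higher and 25.3% lower. AARS1 and KARS1 were each 0.58 higher in TC4-2A cells (edgeR adjusted p = 9.71e-20 and 1.12e-16), TARS1 0.39 higher (4.31e-13) and YARS1 0.35 higher (1.52e-13). EPRS1 was 0.21 higher (5.53e-08).

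FARSB and HARS1 were the cytosolic genes lower in TC4-2A than in TL4-2A cells, at −0.27 ± 0.039 and −0.15 ± 0.036 (edgeR adjusted p = 4.87e-07 and 0.000903). MARS2, CARS2 and VARS2 were the mitochondrial genes lower, at −0.39 ± 0.062, −0.25 ± 0.043 and −0.59 ± 0.17 (edgeR adjusted p = 2.11e-06, 9.57e-06 and 0.00517), and VARS2 was no longer called without TL4-2A replicate 1 (−0.41, adjusted p = 0.0883). The mitochondrial genes higher in TC4-2A cells were LARS2, IARS2, TARS2 and WARS2. The calls of TARS2 and WARS2, at 0.11 and 0.14, had adjusted p of 0.044 and 0.0469 and were lost with DESeq2 (0.0919 and 0.194). TARS2 was also not called without T-REx replicate 2, TC4-2A replicate 2 or 3 or TL4-2A replicate 2 or 3 (0.0502 to 0.289), and WARS2 without T-REx replicate 2 or 3, any TC4-2A replicate or TL4-2A replicate 1 (0.0501 to 0.399).

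HARS1 and HARS2, transcribed away from the interval printed above, did not give the same call in TL4-2A cells. HARS1 had 122.5, 134.9 and 130.2 CPM in T-REx, 136.9, 134.1 and 136.8 CPM in TC4-2A and 150.9, 155.9 and 145.6 CPM in TL4-2A libraries, and was 0.22 ± 0.036 higher in TL4-2A cells (edgeR adjusted p = 3.14e-06). HARS2 had 37.5, 33.8 and 32.7 CPM in T-REx and 35.2, 37.2 and 34.9 CPM in TL4-2A libraries, which overlapped (0.05 ± 0.053, edgeR adjusted p = 0.515). The log2 ratio of HARS1 to HARS2, per kb of exon, was −0.03 ± 0.17 in T-REx and 0.15 ± 0.021 in TL4-2A cells (SD, n = 3), from −0.22 to 0.07 and from 0.13 to 0.17. T-REx and TL4-2A libraries did not overlap in this ratio, but the gap between them was smaller than the spread of the T-REx libraries.

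Because neighbouring genes on a chromosome can move together between cell lines, each member was set beside the 20 tested genes around it, 10 on either side. In TC4-2A cells the median log2 fold change of these neighbours lay between −0.11 and 0.14 for all 35 members. In TL4-2A cells it went beyond 0.25 in either direction for 5 members, which were AARS1, KARS1, TARS1, FARSB and MARS2, the genes of 5 of the 6 largest called changes after VARS2.

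Around AARS1, 12 of 20 neighbours were called lower and 0 higher in TL4-2A cells, with a median of −0.37 against −0.57 for AARS1 itself. Around KARS1, on the same arm of chromosome 16, 14 of 20 were lower and 0 higher, with a median of −0.65 against −0.53. Around TARS1 on chromosome 5, 16 of 20 were lower and 0 higher, with a median of −0.38 against −0.42. Thus all 3 of the large decreases were accompanied by their neighbours.

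The increases of FARSB and MARS2, both on chromosome 2, were also accompanied. Around FARSB 15 of 20 neighbours were higher and 0 lower (median 0.51 against 0.39), and around MARS2 15 were higher and 1 lower (median 0.47 against 0.50). With 50 genes on either side the medians were −0.44 for AARS1, −0.45 for KARS1, −0.31 for TARS1, 0.48 for FARSB and 0.47 for MARS2, and these stretches spanned from 6.45 Mb for AARS1 to 36.3 Mb for TARS1. CARS2, near the end of chromosome 13, was between these cases, with 13 of 20 neighbours higher and 1 lower and a median of 0.19 against 0.45. The part of the neighbourhood in the change of these genes was not tested.

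Several other changes were larger than, or opposite to, those around them. YARS1 changed by 0.24 in TC4-2A cells beside neighbours at −0.05, and by −0.11 in TL4-2A cells beside neighbours at 0.06. SARS1 changed by 0.24 in TC4-2A cells beside neighbours at −0.02, LARS2 by 0.20 beside 0.0, and EPRS1 by 0.15 beside −0.09. SARS2 changed by 0.42 and 0.38 in TC4-2A and TL4-2A cells beside 0.08 and 0.02, and VARS2 by 0.58 and 1.17 beside −0.06 and −0.17. AARS2 rose by 0.23 in TL4-2A cells although 10 of its 20 neighbours were lower and 0 higher (median −0.2), and IARS2 fell by 0.23 beside neighbours at 0.0. Others were close to the median of their 20 neighbours. In TC4-2A cells these included IARS2 (−0.1 beside −0.11), NARS1 (−0.08 beside −0.09) and VARS1 (0.15 beside 0.14). In the TL4-2A line these included NARS1 (−0.11 beside −0.14) and FARSA (0.11 beside 0.07). In the wider neighbourhoods used above, the TC4-2A medians were −0.01 for IARS2, −0.01 for NARS1 and 0.0 for VARS1, so this closeness was not kept. The wider TL4-2A medians were −0.06 for NARS1 and 0.11 for FARSA. CARS2 changed by 0.2 in TC4-2A cells, beside 0.14 for its 20 neighbours and 0.21 in the wider neighbourhood.

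Without the 5 members in such stretches, 7 cytosolic genes were higher and 3 lower of 15 in TL4-2A cells, with a median of 0.0. Of 15 mitochondrial genes 5 were then higher and 1 lower, with a median of 0.03. In the direct comparison 6 cytosolic genes were higher and 1 lower of 15, and 4 mitochondrial genes were higher and 2 lower of 15.

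**Figure D4:**
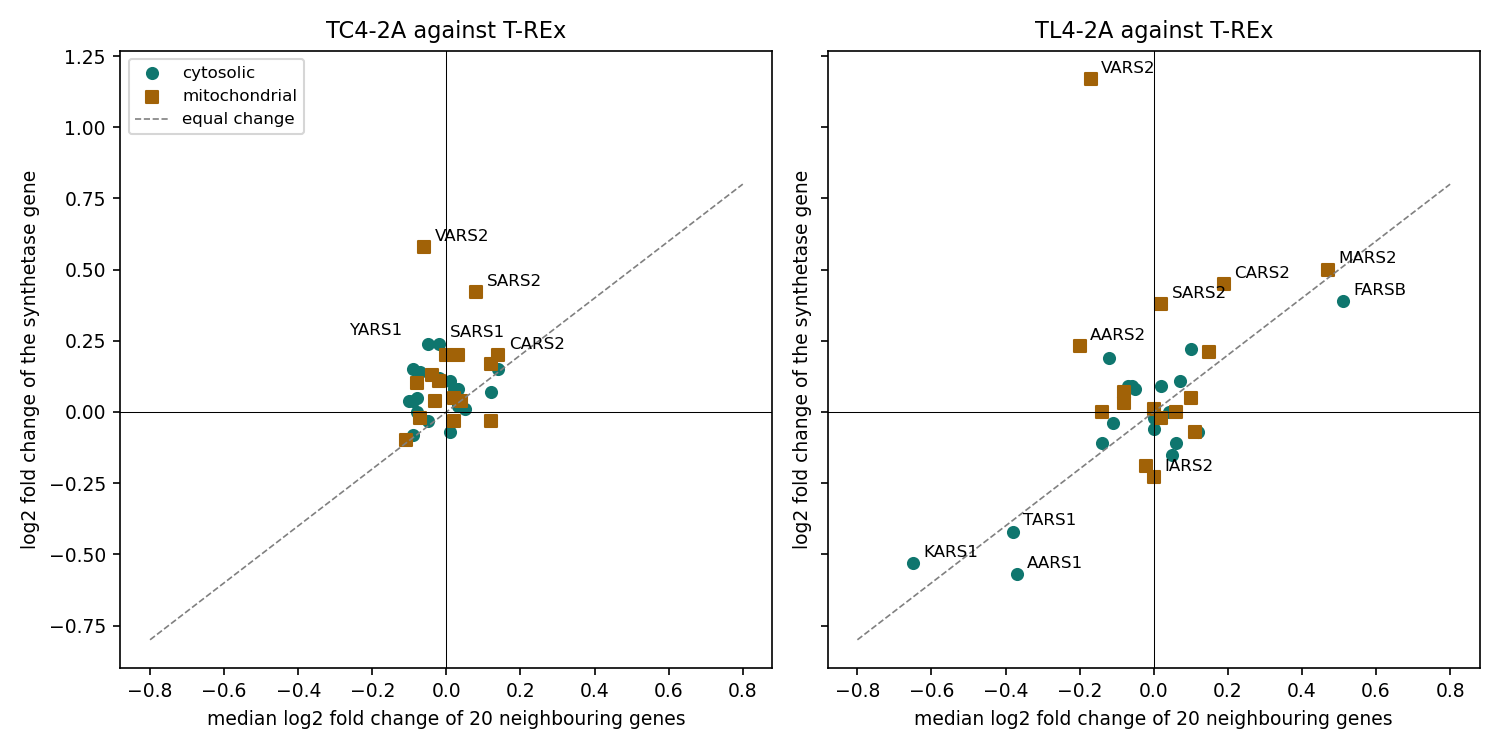
Log2 fold change of each synthetase gene (y axis) against the median log2 fold change of its 20 neighbouring tested genes (x axis), in TC4-2A cells on the left and TL4-2A cells on the right, with a dashed line where both are equal. In TL4-2A cells KARS1, TARS1, MARS2 and FARSB lie toward the ends of the x axis near the line, while VARS2, SARS2 and AARS2 lie well off it. AARS1 (−0.57 beside −0.37) and IARS2 (−0.23 beside 0.0) lie below the line by similar distances.

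Of the 8 members with the promoter match, 4 were lower (AARS1, TARS1, GARS1 and NARS1) and 1 higher (IARS1) in TL4-2A cells, with a median log2 fold change of −0.09. Of the 22 members with a window and no match 9 were higher and 2 lower, with a median of 0.02. Of the 4 genes lower, AARS1 and TARS1 are among those with neighbours that also fell, as given above, and GARS1 (−0.15) and NARS1 (−0.11) had neighbours at 0.05 and −0.14. For TC4-2A against T-REx the calls among the 8 genes were 2 up and 1 down. Among the 22 members without a match they were 10 up and 1 down. The direct comparison, TC4-2A over TL4-2A, gave 4 up and 0 down with a match, and 8 up and 4 down without. Of the 5464 genes at or above the level of CARS1, this comparison called 24.4% up and 25.3% down. With so few genes these counts do not set the match apart.

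For each amino acid with a gene for either compartment, the ratio of cytosolic to mitochondrial mRNA per kb was taken within each library, with the mean of FARSA and FARSB for phenylalanine and EPRS1 for both glutamate and proline. In T-REx cells the log2 ratio ran from −1.63 for isoleucine to 6.85 for valine. It was below 0 in every T-REx library for isoleucine and cysteine, close to 0 for histidine and above 0 for the other 13 amino acids. These signs depend on the annotated exon lengths. By CPM alone, T-REx cells had 457 for IARS1 against 262 for IARS2, and 129 for HARS1 against 34.7 for HARS2. CARS1, with 47.6 CPM, was below CARS2, with 66.5 CPM, on either measure.

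In TL4-2A cells 8 of 16 ratios were lower and 4 higher than in every T-REx library. By the same rule 5072 of the 19473 genes tested (26%) were lower and 4974 (25.5%) higher. These are shares of single genes. A ratio carries the spread of both genes, and EPRS1 enters the ratios for glutamate and proline, so the shares are no background for ratios. The ratio for alanine went from 1.56 ± 0.024 in T-REx to 0.76 ± 0.021 in TL4-2A cells (SD, n = 3), with AARS1 lower and AARS2 higher. That for methionine went from 2.67 ± 0.033 to 2.13 ± 0.11, that for cysteine from −0.43 ± 0.058 to −0.94 ± 0.079, and that for valine from 6.85 ± 0.24 to 5.86 ± 0.33. For isoleucine it moved up, from −1.63 ± 0.017 to −1.32 ± 0.038, with IARS1 higher and IARS2 lower.

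In TC4-2A cells 4 of 16 ratios were lower and 2 higher than in every T-REx library. By the same rule 3950 of the 19473 genes tested (20.3%) were lower and 3891 (20%) higher, again as shares of single genes and not of ratios. The 2 higher were isoleucine, at −1.39 ± 0.015, and tyrosine, which went from 0.72 ± 0.088 to 0.91 ± 0.0095. In TL4-2A cells the tyrosine ratio was 0.53 ± 0.023, lower than in either other line. The ratios for alanine, threonine, methionine and phenylalanine contain AARS1, TARS1, MARS2 and FARSB, genes whose neighbours also changed in TL4-2A cells. Those for valine and serine contain VARS2 and SARS2, whose levels are uncertain because of shared exons, as given above.

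**Figure D5:**
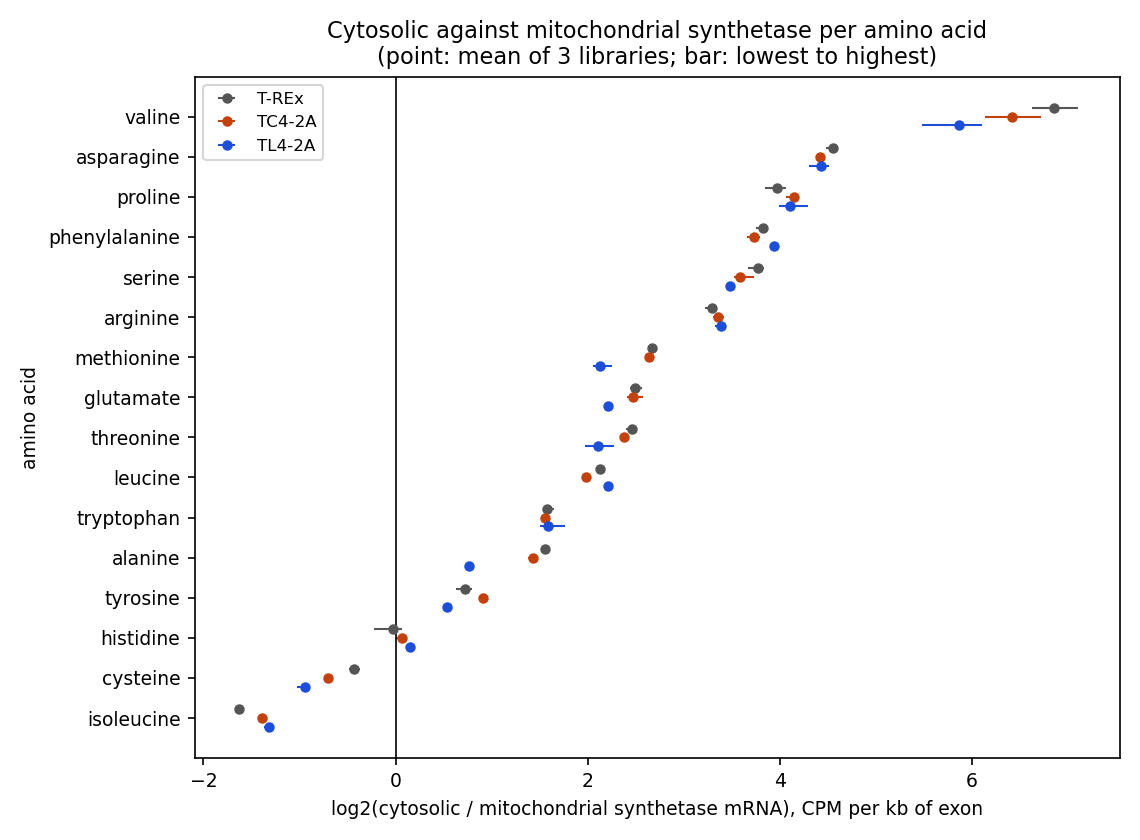
Log2 ratio of cytosolic to mitochondrial synthetase mRNA per kb of exon (x axis) for 16 amino acids in the 3 lines, as the mean (points) and the range (bars) of 3 libraries. The alanine ratio goes from 1.56 in T-REx to 0.76 in TL4-2A cells, and isoleucine has the lowest ratio, −1.63 in T-REx cells.

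Genes that work around the synthetases were taken from 7 lists with 45 genes. Most of these lists hold fewer than 8 genes, and their counts are descriptions beside the shares of all genes tested, 14.2% higher and 14.6% lower for TC4-2A, 21.9% higher and 22.5% lower for TL4-2A cells. In the scaffold of the multisynthetase complex, 0 of 3 genes were called in TC4-2A cells and 1, AIMP1, was lower in TL4-2A cells (−0.22 ± 0.042, edgeR adjusted p = 5.12e-05), from 84.3 to 88.9 CPM in T-REx to 72.5 to 76.6 CPM in TL4-2A libraries. AIMP2 was not called (0.12 and 0.02).

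Of the elongation factors that take up charged tRNA and their exchange factors, 6 of 7 were tested, and in TC4-2A cells 4 rose and 0 fell, and in TL4-2A cells 4 rose and 2 fell. EEF1A2, the tissue-restricted form of elongation factor 1 alpha, had 62.6, 65.6 and 61.6 CPM in T-REx, 71.5, 67.6 and 70.0 CPM in TC4-2A and 19.98, 21.7 and 21.9 CPM in TL4-2A libraries. It fell by 1.58 ± 0.054 in TL4-2A cells (edgeR adjusted p = 1.25e-23), more than any synthetase. EEF1B2, an exchange factor, was higher by 0.18 and 0.48 in TC4-2A and TL4-2A cells (edgeR adjusted p = 5.03e-06 and 9.17e-17), and in TL4-2A cells 14 of its 20 neighbours on chromosome 2 were higher and 0 lower (median 0.46). EEF1G was listed at 0 in every library and was not tested. Since the rule by which reads were assigned is not known, this value does not show whether the gene was expressed.

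Of 4 genes for mitochondrial glutaminyl-tRNA and formylation, 2 rose and 0 fell in TC4-2A cells and 0 were called in TL4-2A cells. GATB, a subunit of the amidotransferase, had 23.8, 24.6 and 22.9 CPM in T-REx and 33.9, 35.5 and 37.7 CPM in TC4-2A libraries (0.59 ± 0.060, edgeR adjusted p = 4.62e-10), and 13 of its 20 neighbours on chromosome 4 were higher and 0 lower (median 0.58). GATC was not called in either line against T-REx (0.10 and −0.11) and was 0.21 ± 0.047 higher in TC4-2A than in TL4-2A cells (edgeR adjusted p = 0.000663).

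Proofreading and peptidyl-tRNA release had 2 of 5 genes up and 0 down in TC4-2A cells, and 2 up and 1 down in TL4-2A cells. AARSD1, which removes serine wrongly joined to the alanine tRNA, was higher by 0.40 and 0.64 (edgeR adjusted p = 0.0208 and 0.00013), and PTRH2, a peptidyl-tRNA hydrolase, by 0.14 and 0.26 (0.0286 and 4.34e-05). With DESeq2 the calls of AARSD1 and PTRH2 in TC4-2A cells were lost, and those in TL4-2A cells were kept. AARSD1 rested on 79 to 127 counts in a library. Of 5 genes for the maturation of mitochondrial tRNA, 2 rose and 0 fell in TC4-2A cells, and 2 rose and 1 fell in TL4-2A cells. Both named subunits of the mitochondrial tRNA methyltransferase complex that also serves RNase P differed between the derived lines, TRMT10C by 0.26 and HSD17B10 by 0.32 in favour of TC4-2A (edgeR adjusted p = 0.000127 and 1.24e-07). The call of TRMT10C in TC4-2A against T-REx cells (0.19, edgeR adjusted p = 0.00438) was lost with DESeq2 (adjusted p = 0.051).

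Uncharged tRNA is sensed by the kinase GCN2 (EIF2AK4) with GCN1, while IMPACT restrains it. GCN1 was higher by 0.15 and 0.18 in TC4-2A and TL4-2A cells (edgeR adjusted p = 7.41e-05 and 2.04e-06), and IMPACT lower by −0.16 and −0.25 (0.00776 and 7.62e-05). EIF2AK4 changed by −0.01 in TC4-2A cells, with no call, and by −0.11 in TL4-2A cells (edgeR adjusted p = 0.0242), so that 1 of the 3 genes was higher and 2 were lower in TL4-2A cells.

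Of 18 genes of the amino acid response, 7 rose and 4 fell in TC4-2A cells, at a median log2 fold change of 0.05. In TL4-2A cells 1 was higher and 12 lower, with a median of −0.21, and 13 were higher and 0 lower in TC4-2A than in TL4-2A cells, with a median of 0.28. In the direct comparison 17.6% of all genes tested were higher and 17.8% lower in TC4-2A, beside the shares against T-REx given above (14.2% up and 14.6% down for TC4-2A, 21.9% up and 22.5% down for TL4-2A cells). Among the 5464 genes at or above the level of CARS1 the direct comparison had 24.4% higher and 25.3% lower. SLC7A5, a transporter of large neutral amino acids, had 128.7, 121.3 and 116.8 CPM in T-REx, 141.8, 140.5 and 139.0 CPM in TC4-2A and 52.5, 56.0 and 57.0 CPM in TL4-2A libraries. It fell by 1.15 ± 0.042 in TL4-2A cells (edgeR adjusted p = 1.08e-22), and 12 of its 20 neighbours, also on chromosome 16, were lower and 1 higher (median −0.42).

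SLC7A11, the cystine transporter, had 64.8, 61.1 and 67.0 CPM in T-REx, 98.7, 108.3 and 108.9 CPM in TC4-2A and 74.3, 76.2 and 74.2 CPM in TL4-2A libraries. It was the 1 gene of the list higher in TL4-2A cells (0.22 ± 0.046, edgeR adjusted p = 0.000152), and in TC4-2A cells it rose by 0.71 ± 0.044 (edgeR adjusted p = 1.29e-15), where 11 of its 20 neighbours on chromosome 4 were higher and 2 lower (median 0.42). ATF4 itself, named here outside the rule for its place in the list, was higher by 0.21 ± 0.029 in TC4-2A cells (edgeR adjusted p = 3.83e-07) and changed by −0.06 ± 0.029 in TL4-2A cells (edgeR adjusted p = 0.11).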

How the data were processed

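RNA was measured in 3 libraries each of T-REx cells and the derived lines TC4-2A and TL4-2A. The authors deposited raw gene counts, for which paired-end reads of directional libraries depleted of ribosomal RNA were aligned to GRCh38 by HISAT2 and counted over Gencode 33 genes by featureCounts. Tool versions, and how strand and multiple matches were treated, are stated in none of the sources used here. The authors also deposited tables of log2 fold changes, standard errors, p-values and mean normalised counts from DESeq2, which were not used.

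Counts were read for 60648 gene lines, 44 of them pseudoautosomal genes on chromosome Y, and 3 damaged lines were dropped. Symbols, positions and exon lengths came from Gencode 44 (same build), which held 60506 of the identifiers. Genes were filtered with filterByExpr, libraries scaled by TMM, and 1 edgeR 4.0.16 quasi-likelihood model (R 4.3.3) covered all 9 libraries, with each cell line as a level. Tests were 2-sided, with Benjamini-Hochberg adjustment over 19473 genes and a call under 0.05. The procedure was tested on simulated data. CPM use the TMM-scaled sizes, and medians of lists are descriptions without a test. Depth, 16561680 to 21491977 counts a library, sets the precision.

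Alternatives were DESeq2 1.42.0, RLE scaling, no filter, at least 10 counts in every library, only the 2 lines compared, a replicate block and each library left out. Leaving out members with moving neighbours (median log2 fold change of the 20 neighbours beyond 0.25) and neighbourhoods of 50 genes on either side were added after the data were seen. Members and lists were chosen with earlier results of these data known. Named were, per class and comparison, the 4 called members with the smallest p, HARS1, HARS2, SARS1 and the 2 genes of each partner list with the smallest p. Other members are named to account for all 35, and EEF1G, EIF2AK4 and ATF4 were added after their values were seen. RefSeq promoters were used for 30 members. LARS1, VARS1, YARS1, AARS2 and VARS2 had no window. Python 3.11.15, pandas 2.3.3 and matplotlib 3.10.9 made tables and plots.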

Additional observations from a re-analysis of the deposited data

Results flagged for a closer look

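In 18 of the 35 synthetase genes the change against T-REx differed between TC4-2A and TL4-2A cells, by the direct edgeR test of the difference, 13 higher in TC4-2A and 5 lower. Over all genes tested 17.6% were higher and 17.8% lower, and among the 5464 genes at least as abundant as CARS1 24.4% and 25.3%. Several mitochondrial members, such as VARS2 and MARS2, were less abundant than CARS1, so these shares are no matched background. The shares were nearly even between directions, while 13 of the 35 members were higher and 5 lower. Whether the members differ from other genes in this was not tested. The log2 differences, TC4-2A over TL4-2A, were 0.58 for AARS1, 0.58 for KARS1, 0.39 for TARS1, 0.35 for YARS1, 0.21 for EPRS1, 0.15 for GARS1, 0.15 for SARS1, 0.11 for MARS1 and 0.10 for WARS1 among cytosolic genes higher in TC4-2A cells. FARSB at −0.27 and HARS1 at −0.15 were the cytosolic genes lower. Among mitochondrial genes the differences were 0.21 for LARS2, 0.12 for IARS2, 0.14 for WARS2 and 0.11 for TARS2, and −0.59 for VARS2, −0.39 for MARS2 and −0.25 for CARS2. AARS1, KARS1, TARS1, FARSB and MARS2 have neighbours whose median differed in the same direction, beyond 0.25.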

How the results depend on the processing

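No called value changed direction under any alternative run. The mitochondrial median in the direct comparison, 0.01, ranged from −0.01 to 0.02 with a library left out. The count of cytosolic genes lower in TC4-2A cells, 1 (NARS1), became 0 with DESeq2, with no expression filter, with only the 2 lines compared, and with each library left out (0 to 0). Mitochondrial genes higher in TC4-2A than in TL4-2A cells, 4, became 2 with DESeq2 and with only the 2 lines compared, and ranged from 2 to 5 with a library left out. Cytosolic genes higher in TL4-2A cells, 8, became 5 with no expression filter and 5 to 8 with a library left out (5 without T-REx replicate 2 or TL4-2A replicate 2). Mitochondrial genes higher in TC4-2A cells, 7, ranged from 4 to 7 with a library left out (4 without T-REx replicate 3). With a library left out, the cytosolic median in TC4-2A cells ranged from 0.04 to 0.08, in TL4-2A cells from −0.03 to 0.0 and in the direct comparison from 0.04 to 0.07, and the mitochondrial median in TL4-2A cells from 0.01 to 0.05. Without members in stretches of moving neighbours, cytosolic genes lower in TL4-2A cells went from 6 to 3 and their median to 0.0, cytosolic genes lower in TC4-2A than in TL4-2A cells from 2 to 1 and their median to 0.03, and the mitochondrial median in the direct comparison to 0.04, since fewer members were counted. For the other changes the cause was not tested.

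Replicate numbers did not pair the libraries: the 9 correlations of same-numbered libraries lay between −0.0295 and 0.0302. With the replicate block the count of cytosolic genes lower in TC4-2A cells was 0.

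Of 2250 values of single genes under an alternative, 89 lost and 15 gained a call.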
